A study of Homo sapiens with 12 samples.

Results

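The 10 genes described here are markers of epithelial-mesenchymal transition (EMT) in lens epithelial cells: the transcription factors SNAI1, SNAI2, ZEB1 and ZEB2, the cadherins CDH1 and CDH2, the filament protein gene VIM, the matrix gene FN1, and the contractile genes ACTA2 and TAGLN. They were chosen by gene symbol, and each symbol matched 1 row among the 58735 genes of the expression tables. The cells were HLE-B3, a human lens epithelium line that has been immortalized, and RNA of 3 biological replicates was sequenced for each of 4 groups: wild-type (WT) cells and cells in which ATG7 had been targeted by CRISPR/Cas9 (ATG7 KO), each untreated (0 h) or treated with 200 μM H2O2 for 12 h. ATG7 encodes an enzyme needed to form autophagosomes. All 4 groups were grown in the same medium, and the ATG7 KO cells came from single clones picked after puromycin selection, without a statement of which clone or clones were sequenced. In the comparisons of ATG7 KO with WT cells, loss of ATG7 and differences due to clone or selection therefore cannot be told apart. Untreated cells were those of 0 h, so H2O2 and 12 h in culture cannot be told apart. ATG7 mRNA itself was not lower in ATG7 KO cells (mean FPKM of 3.55 against 2.55 untreated and 2.19 against 1.96 with H2O2), so these counts do not check the knockout labels. The paper reports that the loss of ATG7 in picked clones was checked at the protein level, by western blot.

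In EMT, epithelial cells lose the junctions that tie them to their neighbours and take on the shape, matrix production and contractility of mesenchymal cells. SNAI and ZEB proteins are repressors that bind E-box sequences, among others in the gene of E-cadherin, CDH1, while N-cadherin, vimentin, fibronectin and smooth muscle actin are the usual gains. In the lens, EMT of epithelial cells is known from anterior subcapsular cataract and from opacification of the posterior capsule after surgery, and lens epithelium is unusual in carrying N-cadherin and vimentin already in its normal state.

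Library totals on genes ran from 15602183 to 17659496 reads. The library of untreated ATG7 KO replicate 1 stood apart from its own replicates. Its log2 CPM (counts scaled to library size) correlated with another replicate at 0.974 at the lowest, against 0.99 or more within the other 3 groups, and short genes were on median higher and long genes lower than in its replicates. Each result on a marker that rests on untreated ATG7 KO cells is therefore given with and without that library. Of 13 lens epithelium markers, 5 passed a mean of 1 FPKM (fragments per kilobase of gene length, scaled to library size) in at least 1 group: CRYAB, PAX6, SIX3, GJA1 and CDH2. The crystallin gene CRYAA and the lens factor FOXE3 stayed under 0.1 FPKM, and SOX1 and SOX2 were listed at 0 in all 12 libraries, so several defining markers of the labelled cell type were absent. Of 9 fibroblast markers, 6 passed 1 FPKM. Their summed level was 654 to 686 FPKM in untreated WT cells, 294 to 311 in H2O2-treated WT cells, 393 to 543 in untreated ATG7 KO cells and 266 to 275 in H2O2-treated ATG7 KO cells, most of it from COL1A1, while COL3A1 and DCN were at or under 0.1. The part of such a shift in the results below was not tested. Of 11 lens fibre markers 1 passed 1 FPKM, CRYGS, and of 7 markers of surface and retinal pigment epithelium 1 did, MITF. Endothelial markers summed to at most 0.842 FPKM and leukocyte markers to at most 2.12. In bulk RNA, a change in the number of cells that express a gene and a change in RNA per cell cannot be told apart.

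For 6 of the 10 genes, RefSeq promoters on GRCh38.p14 (250 bases before and 50 after a start site, 14 entries) were searched on both strands for the E-box, the CArG box and the AP-1 site and, added after the sequences had been seen, for a CArG-like box and the cAMP response element. The E-box of SNAI and ZEB proteins (CACCTG, read on the other strand as CAGGTG) was found in 2 of the ZEB1 entries and in none of the entries of ACTA2, CDH2, FN1, VIM and ZEB2. It stands in 20.6% of all 35116 promoters. The AP-1 site TGANTCA, present in 7.71% of promoters, occurred in 1 entry, of CDH2. No entry held a full CArG box, the site of serum response factor (CC, 6 letters A or T, GG; 1.29% of promoters), but ACTA2 held 2 CArG-like boxes with 1 C or G among the central letters (6.94% of promoters). The cAMP response element TGACGTCA, found in 1.85% of promoters, was present in FN1. A match describes the letters only and shows no binding. The bases before the start site are shown for the 4 genes with a match there, as far as they lie outside exons of the gene's protein-coding transcripts. Matches are in capitals. With H2O2, ACTA2 rose in both lines, FN1 fell in WT cells, CDH2 fell in both lines, and the responses of ZEB1 differed between the lines. The bases of ACTA2 lie at chr10:88952774-88953023 (minus strand, inside the gene, before the start of its principal transcript). Those of FN1 lie at chr2:215436173-215436318 (minus strand, upstream of the gene). Those of CDH2 lie at chr18:28036642-28036891 (minus strand, inside the gene, before an internal start 140805 bases from that of its principal transcript). Those of ZEB1 lie at chr10:31318167-31318416 (plus strand, upstream of the gene, before a start 708 bases from that of its principal transcript). The CDH2 entry nearest to the principal transcript, not shown, held no match. The ZEB1 entry nearest to the principal transcript, not shown, held 3 E-boxes, the first at -242.
ACTA2: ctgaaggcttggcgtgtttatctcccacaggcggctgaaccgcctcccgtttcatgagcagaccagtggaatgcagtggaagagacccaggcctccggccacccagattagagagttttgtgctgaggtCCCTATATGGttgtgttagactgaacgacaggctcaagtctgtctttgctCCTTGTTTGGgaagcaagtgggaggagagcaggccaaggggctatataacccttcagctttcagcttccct
FN1: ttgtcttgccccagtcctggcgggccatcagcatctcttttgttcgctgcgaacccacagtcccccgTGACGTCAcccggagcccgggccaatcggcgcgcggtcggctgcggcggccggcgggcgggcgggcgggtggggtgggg
CDH2: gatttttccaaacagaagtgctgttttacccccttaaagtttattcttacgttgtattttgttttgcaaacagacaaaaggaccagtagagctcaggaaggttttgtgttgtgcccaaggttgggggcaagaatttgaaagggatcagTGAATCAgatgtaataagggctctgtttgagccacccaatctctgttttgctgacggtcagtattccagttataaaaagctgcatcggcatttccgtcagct
ZEB1: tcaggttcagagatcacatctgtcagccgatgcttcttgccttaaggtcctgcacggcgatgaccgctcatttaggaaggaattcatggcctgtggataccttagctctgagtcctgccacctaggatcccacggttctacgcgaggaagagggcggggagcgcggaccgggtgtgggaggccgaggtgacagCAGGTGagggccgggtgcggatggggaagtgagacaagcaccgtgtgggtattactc
Counted from the start site of each entry, the ACTA2 boxes begin at -121 and -71, the FN1 element at -183, the CDH2 site at -102 and the ZEB1 E-box at -57.

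The levels of the markers per length spanned a wide range. In untreated WT cells, VIM had the highest mean FPKM (322), followed by CDH2 (163), FN1 (143) and TAGLN (30.2). The transcription factors lay between 3.21 FPKM for SNAI1 and 8.43 for ZEB1, ACTA2 was at 1.56 and CDH1 at 0.00912. Replicates of ZEB2 and SNAI1, neighbours in this order, overlapped. With the length of the principal transcript in place of the gene length used by the authors, FN1 passed CDH2 in all 4 groups, so their order depends on which transcripts are present. After H2O2, SNAI2 moved up to place 5 of 10 in WT cells and to place 4 in ATG7 KO cells, where it stood above TAGLN. The small panels of FPKM by library show all 10 genes.

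**Figure D1:**
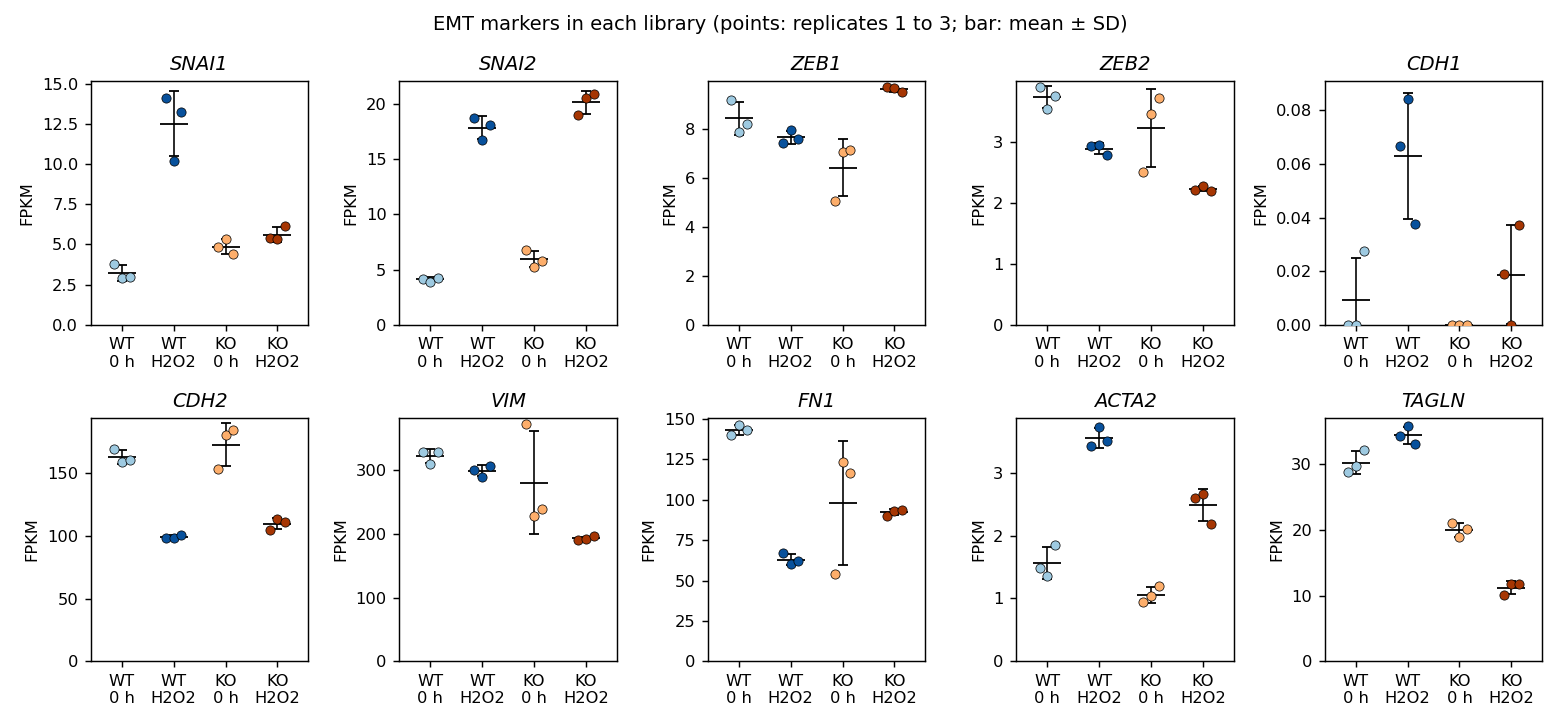
FPKM of each EMT marker (vertical axis, from 0, one scale per gene) in WT and ATG7 KO (KO) cells, untreated (0 h) or after 12 h with H2O2; points are the 3 replicates of each group, placed left to right in label order, and bars are mean ± SD. SNAI1 stands out as high only in H2O2-treated WT cells (10.2 to 14.1 FPKM), TAGLN is lowest in H2O2-treated ATG7 KO cells (10.1 to 11.8 FPKM), and replicate 1 of untreated ATG7 KO cells lies apart for FN1, VIM, ZEB1 and ZEB2.

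H2O2 changed 7 of the 9 markers that could be tested in WT cells, at an adjusted p under 0.01 by edgeR's quasi-likelihood test: ACTA2, TAGLN, SNAI1 and SNAI2 rose, and FN1, CDH2 and ZEB2 fell. Of all genes tested in this comparison, 61% passed. With the thresholds of the study added (log2 fold change beyond 1 and mean FPKM above 1), 4 markers remained, ACTA2, FN1, SNAI1 and SNAI2, beside 12.5% of genes. In ATG7 KO cells, H2O2 changed 4 markers, with ACTA2 and SNAI2 higher and TAGLN and CDH2 lower, where 26% of genes passed; 2 of them, ACTA2 and SNAI2, met the added thresholds, as did 11.2% of genes. Without untreated ATG7 KO replicate 1, 8 markers passed in ATG7 KO cells, 3 up and 5 down, and so did 58.4% of genes. The median log2 fold change was -0.11 over the tested markers in WT cells and -0.09 in ATG7 KO cells, against medians near 0 over all genes (-0.01 and -0.03). The ATG7 KO median was the value of FN1, which was -0.39 without untreated replicate 1. Without that library the median was the value of VIM, -0.29.

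Comparing ATG7 KO with WT cells, 1 marker, TAGLN, differed in the untreated state, where 7.7% of genes did and no marker met the study's thresholds (3.5% of genes met them). Without replicate 1 of untreated ATG7 KO cells, 7 markers passed in that comparison, SNAI1, SNAI2 and CDH2 higher and TAGLN, FN1, VIM and ZEB1 lower, beside 36.2% of genes. With H2O2, all 9 tested markers differed between the lines, 4 higher (FN1, CDH2, SNAI2 and ZEB1) and 5 lower (ACTA2, TAGLN, VIM, SNAI1 and ZEB2) in ATG7 KO cells, against 55.6% of genes. Only TAGLN and SNAI1 met the study's thresholds here, as did 7.46% of genes. When the spread was estimated from all 12 libraries together, 3 of these 9 differences passed (TAGLN, VIM and SNAI1). The 12 libraries take in untreated ATG7 KO replicate 1. The estimated coefficient of variation between replicates was 0.12 over them and 0.042 over the treated libraries alone. With 1 treated library left out of the latter, 8 to 9 markers passed. The H2O2 responses of the lines differed, as an interaction, for TAGLN, SNAI1 and ZEB1, with 14% of genes passing; TAGLN and SNAI1 met the study's thresholds, beside 5.17% of genes. Without replicate 1, FN1, VIM and ZEB2 passed too, and 34.1% of genes. The 4 comparisons of groups share libraries, so their counts are not independent of each other.

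**Figure D2:**
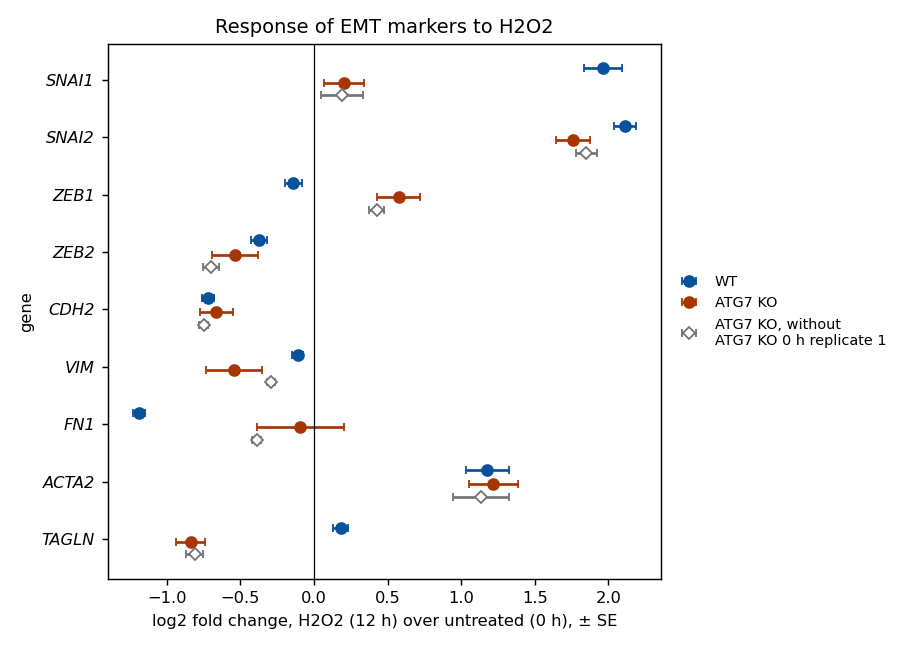
Log2 fold change ± SE of 9 EMT markers after 12 h with H2O2 over untreated cells, in WT (blue circles) and ATG7 KO cells (brown circles), with the ATG7 KO values without untreated replicate 1 as open diamonds. SNAI1 rose in WT cells (1.96) and was at 0.20 in ATG7 KO cells, and TAGLN lies on opposite sides of 0. CDH2 and ACTA2 lie closest together between the lines, and SNAI2 is at 2.11 in WT and 1.76 in ATG7 KO cells.

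SNAI1 (ENSG00000124216, chromosome 20, 49982999 to 49988886 on GRCh38, plus strand) encodes Snail, a repressor of CDH1 and an early factor of EMT. In WT cells it had 3.78, 2.90 and 2.94 FPKM untreated and 14.1, 10.2 and 13.2 FPKM with H2O2. In ATG7 KO cells it had 4.82, 5.36 and 4.39 FPKM untreated and 5.37, 5.34 and 6.12 FPKM with H2O2. All treated WT libraries lay above all others, whereas treated and untreated ATG7 KO libraries overlapped. The log2 fold change with H2O2 was 1.96 ± 0.13 (SE) in WT cells, with an adjusted p of 1.04e-17, and 0.20 ± 0.14 in ATG7 KO cells, with an adjusted p of 0.257 (0.19 ± 0.14 without untreated replicate 1, adjusted p = 0.226). The difference between these responses was -1.76 ± 0.22 (adjusted p = 0.000181), and it was -1.76 ± 0.19 without replicate 1. With H2O2, ATG7 KO cells held less SNAI1 than WT cells, by a log2 difference of -1.17 ± 0.12 (adjusted p = 2e-10). In the untreated state the log2 difference was 0.60 ± 0.16 with an adjusted p of 0.0438, and 0.61 without replicate 1, where it passed (adjusted p = 0.000874).

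SNAI2 (ENSG00000019549, chromosome 8, 48917604 to 48921740, minus strand) encodes Slug, the paralog of Snail. Untreated WT libraries had 4.18, 3.91 and 4.27 FPKM and treated WT libraries 18.8, 16.7 and 18.1. Untreated ATG7 KO libraries had 6.78, 5.28 and 5.81 FPKM and treated ones 19.0, 20.6 and 21.0. Treated and untreated libraries were far apart in both lines, and the treated ATG7 KO libraries all lay above the treated WT libraries. With H2O2, SNAI2 rose by 2.11 ± 0.07 on the log2 scale in WT cells (adjusted p = 1.18e-28), and its rise in the ATG7 KO line was 1.76 ± 0.12 (adjusted p = 6.41e-05), or 1.85 ± 0.07 without untreated replicate 1. The difference between the responses was -0.36 ± 0.14 with an adjusted p of 0.0633, and -0.25 ± 0.11 without replicate 1 (adjusted p = 0.0531). With H2O2, SNAI2 was higher in ATG7 KO cells by 0.17 ± 0.06 (adjusted p = 0.00972), a call that was lost with DESeq2 (adjusted p = 0.0281), with other scalings and without WT replicate 2 (0.12, adjusted p = 0.0779) or ATG7 KO replicates 2 or 3 of the treated cells (adjusted p = 0.027 and 0.0492). Untreated, the log2 difference was 0.53 ± 0.12 (adjusted p = 0.0247) and 0.44 ± 0.11 without replicate 1 (adjusted p = 0.000239). The 2 paralogs thus had like responses in WT cells and, in ATG7 KO cells, a response for SNAI2 with none detected for SNAI1.

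ZEB1 (ENSG00000148516, chromosome 10, 31318495 to 31529814, plus strand) encodes a zinc finger repressor of epithelial genes. It had 9.20, 7.88 and 8.21 FPKM in untreated and 7.44, 7.95 and 7.60 FPKM in treated WT cells. In ATG7 KO cells it had 5.07, 7.06 and 7.14 FPKM untreated and 9.70, 9.66 and 9.50 FPKM with H2O2. WT libraries of both states overlapped, and the treated ATG7 KO libraries lay above all others. The log2 fold change with H2O2 was -0.14 ± 0.06 in WT cells (adjusted p = 0.0274), while the ATG7 KO line had 0.58 ± 0.15 (adjusted p = 0.0179); without replicate 1 the latter was 0.43 ± 0.05 and passed (adjusted p = 5.05e-14). The interaction was 0.72 ± 0.16 (adjusted p = 0.00637). This call was lost, with values of 0.66 to 0.77, when any 1 of the 9 libraries outside the untreated ATG7 KO group was left out, and without replicate 1 it was 0.58 ± 0.08 (adjusted p = 1.59e-09). With H2O2, ZEB1 was higher in ATG7 KO than in WT cells by 0.32 ± 0.05 (adjusted p = 9.8e-07). With a gene length offset this difference was 0.19 and the interaction 0.47, both still past the threshold, and the response in WT cells changed sign (0.06). Untreated, the difference between the lines was -0.39 ± 0.15 (adjusted p = 0.126), or -0.24 ± 0.06 without replicate 1 (adjusted p = 0.000292).

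ZEB2 (ENSG00000169554, chromosome 2, 144364364 to 144524583, minus strand) is the paralog of ZEB1. Its libraries had 3.89, 3.54 and 3.75 FPKM in untreated and 2.93, 2.95 and 2.79 FPKM in treated WT cells. ATG7 KO libraries had 2.50, 3.45 and 3.71 FPKM untreated and 2.21, 2.28 and 2.20 FPKM treated. Each treated group lay below its untreated group, and replicate 1 was the lowest of the untreated ATG7 KO libraries. With H2O2, ZEB2 fell by 0.37 on the log2 scale (SE 0.05, adjusted p = 3.31e-08) in WT cells, although with a gene length offset the value was 0.05. In ATG7 KO cells the log2 fold change was -0.54 ± 0.16 (adjusted p = 0.0296) and, without replicate 1, -0.70 ± 0.05 (adjusted p = 1.21e-31). Treated ATG7 KO cells had less ZEB2 than treated WT cells, by a log2 difference of -0.38 ± 0.05 (adjusted p = 1.16e-07), which was -0.71 with the gene length offset. Untreated, the difference was -0.21 ± 0.16 (adjusted p = 0.385), or -0.05 ± 0.05 without replicate 1 (adjusted p = 0.487), and the interaction -0.16 ± 0.17 (adjusted p = 0.479), or -0.31 ± 0.08 without it (adjusted p = 0.000426). The overlapping antisense gene ZEB2-AS1, which shares 1299 exonic bases with it, had at most 3 reads in any library. ZEB1 and ZEB2 therefore lay on opposite sides of 0 in the comparison of the lines with H2O2.

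CDH1 (ENSG00000039068, chromosome 16, 68737225 to 68835548, plus strand), the gene of E-cadherin, was at the limit of detection. It had 0, 0 and 3 reads in untreated WT libraries, 7, 8 and 4 in treated WT libraries, no read in untreated ATG7 KO libraries and 2, 0 and 4 reads in treated ATG7 KO libraries. A count of 0 in these libraries allows up to 3 reads, or 0.0275 to 0.0291 FPKM in the libraries at 0 (counting error only). It passed the filter on low counts in none of the comparisons. The treated WT libraries did not overlap with the untreated ones, but an exact two-sided permutation test of 3 against 3 cannot go below p = 0.1, which was the value reached (mean 0.385 against 0.0578 CPM). Without a filter on low counts, edgeR gave an adjusted p of 0.0203 for that comparison, above the threshold used here.

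CDH2 (ENSG00000170558, chromosome 18, 27950966 to 28177446, minus strand), the gene of N-cadherin, was by contrast among the 3 highest markers. Untreated WT libraries had 169, 159 and 160 FPKM and treated WT libraries 97.9, 98.5 and 101. Untreated ATG7 KO libraries had 153, 180.2 and 184 FPKM and treated ones 105, 113 and 111. All treated libraries lay below all untreated libraries. With H2O2, CDH2 fell by 0.72 on the log2 scale (SE 0.04, adjusted p = 6.23e-21) in WT cells and fell by 0.66 (SE 0.11, adjusted p = 0.00338) in ATG7 KO cells. The second value was -0.75 ± 0.03 without replicate 1 and missed the threshold when any other library of that comparison was left out (adjusted p of 0.0127 to 0.027). The responses differed by 0.06 ± 0.11 (adjusted p = 0.724), or by -0.02 ± 0.05 without replicate 1 (adjusted p = 0.85). With H2O2, ATG7 KO cells had more CDH2 than WT cells by 0.14 ± 0.03 (adjusted p = 0.000843), which did not pass with upper quartile scaling (adjusted p = 0.0152). Untreated, the difference was 0.09 ± 0.11 (adjusted p = 0.628), or 0.17 ± 0.04 without replicate 1 (adjusted p = 0.000239).

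Per base of gene length, CDH2 exceeded CDH1 17900-fold in untreated WT cells (exact 95% Poisson interval of the CDH1 count, 6130 to 86900) and 1600-fold in treated WT cells (1020 to 2650). In untreated ATG7 KO cells, with no CDH1 read, it was at least 15300-fold higher, by the upper bound of the same interval for a count of 0 over the group. In treated ATG7 KO cells the ratio was 5730 (2630 to 15600). These intervals cover counting error only. The cadherin ratio was lowest in treated WT cells, the group with the most CDH1 reads (19).

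VIM (ENSG00000026025, chromosome 10, 17228259 to 17237593, plus strand) encodes vimentin, the intermediate filament of mesenchymal and lens epithelial cells. WT libraries had 328, 309 and 329 FPKM untreated and 301, 290 and 307 FPKM with H2O2. ATG7 KO libraries had 373, 229 and 239 FPKM untreated and 191, 192 and 196 FPKM with H2O2. The treated ATG7 KO libraries were the lowest of all 12, and replicate 1 of untreated ATG7 KO cells was the highest. With H2O2, VIM was lower in ATG7 KO than in WT cells by a log2 difference of -0.64 ± 0.03 (adjusted p = 1.07e-17). In the untreated state the difference was -0.20 ± 0.19 (adjusted p = 0.491) and, without replicate 1, -0.45 ± 0.04 (adjusted p = 3.56e-21). The response to H2O2 was -0.11 ± 0.04 in WT cells, just past the threshold on the side not called (adjusted p = 0.0104). It was, in ATG7 KO cells, -0.54 ± 0.19 (adjusted p = 0.0562), and -0.29 ± 0.03 without replicate 1 (adjusted p = 1.34e-19). The interaction was -0.43 ± 0.20 (adjusted p = 0.125), or -0.17 ± 0.05 without replicate 1 (adjusted p = 0.00426). The antisense gene VIM-AS1, with 641 shared exonic bases, had 52 to 200 reads per library against 16252 or more for VIM.

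FN1 (ENSG00000115414, chromosome 2, 215360440 to 215436172, minus strand) encodes fibronectin. It had 140.1, 146 and 143 FPKM in untreated and 66.8, 60.0 and 62.2 FPKM in treated WT cells. ATG7 KO libraries had 53.9, 123 and 117 FPKM untreated and 90.1, 93.1 and 93.7 FPKM with H2O2. Treated WT libraries lay far below untreated ones, while replicate 1 of untreated ATG7 KO cells, at 15397 reads against 38025 and 37360 in its replicates, was the lowest library of all. In WT cells FN1 fell by 1.19 on the log2 scale (SE 0.04, adjusted p = 2.9e-29). The log2 fold change in ATG7 KO cells was -0.09 ± 0.29 (adjusted p = 0.818) with all libraries, and without replicate 1 FN1 fell by 0.39 (SE 0.03, adjusted p = 4.17e-33). Without replicate 2 or 3 of the untreated ATG7 KO cells the value was on the other side of 0 (0.10 and 0.05). The interaction was 1.10 ± 0.31 (adjusted p = 0.0188) and, without replicate 1, 0.81 ± 0.05 (adjusted p = 2.19e-25). After H2O2, FN1 was higher in ATG7 KO than in WT cells by 0.54 ± 0.03 (adjusted p = 6.82e-15). All 3 treated ATG7 KO libraries lay above every treated WT library. With a gene length offset the difference was 0.27, and with all 12 libraries in the fit its adjusted p was 0.0586. Untreated, the difference was -0.55 ± 0.29 (adjusted p = 0.237), or -0.25 ± 0.04 without replicate 1 (adjusted p = 7.06e-08).

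ACTA2 (ENSG00000107796, chromosome 10, 88935074 to 88991339, minus strand) encodes α-smooth muscle actin, the standard marker of myofibroblasts, and was expressed at a low level. WT libraries had 1.49, 1.35 and 1.85 FPKM untreated and 3.43, 3.73 and 3.50 FPKM with H2O2. ATG7 KO libraries had 0.937, 1.04 and 1.20 FPKM untreated and 2.59, 2.66 and 2.19 FPKM with H2O2. Treated libraries lay above untreated ones in each line, and the ATG7 KO libraries lay below the WT libraries in each state. With H2O2, ACTA2 rose by 1.18 ± 0.14 on the log2 scale in WT cells (adjusted p = 7e-10), and the ATG7 KO line showed a rise of 1.22 ± 0.17 (adjusted p = 0.00139), or 1.13 ± 0.19 without untreated replicate 1 (adjusted p = 1.51e-08). On the log2(FPKM + 1) scale, which compresses low levels, that rise was 0.76. The call in ATG7 KO cells was lost without treated replicate 1 or 2 (adjusted p = 0.01 and 0.0102). The responses differed by 0.04 ± 0.21 (adjusted p = 0.904), a value that changed sign without replicate 1 (-0.03). With H2O2, ATG7 KO cells had less ACTA2 (log2 difference -0.53 ± 0.12, adjusted p = 0.000451), and the untreated difference was -0.56 ± 0.20 (adjusted p = 0.0914), or -0.47 ± 0.22 without replicate 1 (adjusted p = 0.0599). A limit of these counts is FAS, on the opposite strand, which shares 380 exonic bases with ACTA2 (12.8% of its exonic bases) and had 267 to 3372 reads per library against 46 to 179 for ACTA2. The strand setting of the counting is not given, and the part of FAS reads in these values was not tested.

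TAGLN (ENSG00000149591, chromosome 11, 117199321 to 117204782, plus strand) encodes transgelin, an actin-binding protein of smooth muscle and myofibroblasts. WT libraries had 28.8, 29.7 and 32.2 FPKM untreated and 34.2, 35.8 and 33.1 FPKM with H2O2. ATG7 KO libraries had 21.0, 18.9 and 20.2 FPKM untreated and 10.1, 11.8 and 11.7 FPKM with H2O2. The 4 groups did not overlap, with treated WT highest and treated ATG7 KO lowest. In the untreated state, ATG7 KO cells had less TAGLN (log2 difference -0.60 ± 0.09, adjusted p = 0.0057). Leaving out any 1 of the 5 libraries other than untreated ATG7 KO replicate 1 raised the adjusted p to 0.0247 to 0.0473, and without that replicate it was 3.16e-24 at a log2 difference of -0.62. With H2O2 the difference was -1.62 ± 0.05 (adjusted p = 5.64e-22). With H2O2, TAGLN rose by 0.18 ± 0.05 in WT cells (adjusted p = 0.00135), a call lost without untreated replicates 1 or 2 or treated replicate 2 (0.13, 0.16 and 0.15). It fell in ATG7 KO cells by 0.84 (SE 0.10, adjusted p = 0.000735), with a log2 fold change of -0.81 ± 0.06 without untreated replicate 1. The interaction was -1.02 ± 0.11 (adjusted p = 0.000102), and -0.98 ± 0.08 without replicate 1. The 2 contractile markers thus responded to H2O2 in the same direction in WT cells and in opposite directions in ATG7 KO cells. PCSK7, on the opposite strand with 446 shared exonic bases, had 296 to 647 reads per library against 679 to 2274 for TAGLN. The part of PCSK7 reads in the TAGLN values was not tested.

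**Figure D3:**
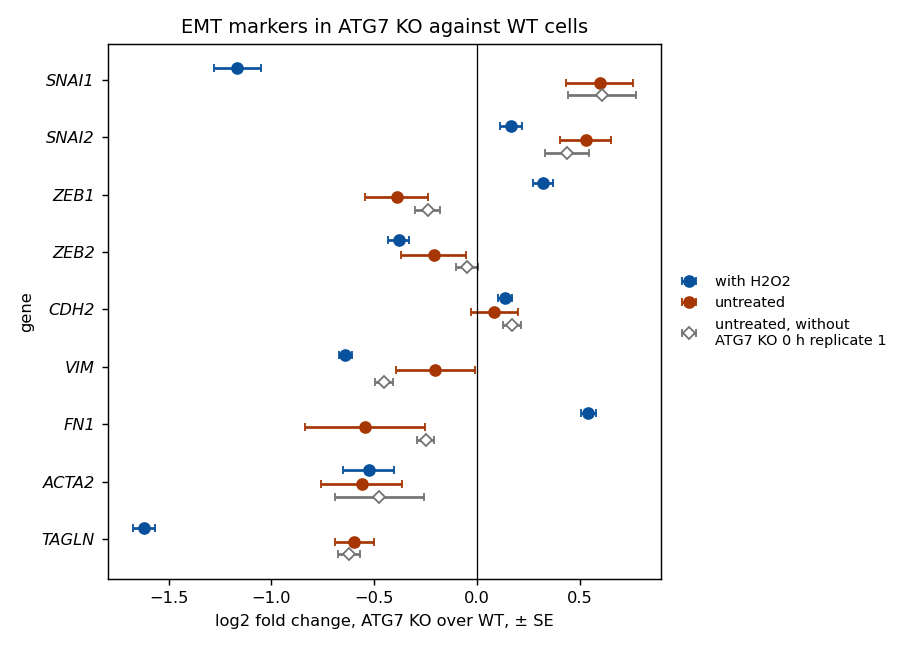
Log2 fold change ± SE of 9 EMT markers in ATG7 KO over WT cells with H2O2 (blue) and untreated (brown), with the untreated values without replicate 1 of ATG7 KO cells as open diamonds. With H2O2, TAGLN (-1.62) and SNAI1 (-1.17) lie farthest below 0 and FN1 (0.54) farthest above, and SNAI1, FN1 and ZEB1 are on the other side of 0 in untreated cells.

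Untreated ATG7 KO replicate 1 differed from the mean of its replicates by -1.16 on the log2 CPM scale for FN1, 0.67 for VIM, -0.53 for ZEB2 and -0.49 for ZEB1, and by 0.28 or less in either direction for the other 5 markers. FN1 was farther off than 92.6% of the 16856 genes compared. Over all genes the median deviation was 0.39 for those of 1253 to 2159 bases and -0.49 for those of 10032 bases or more. The long genes FN1, ZEB1 and ZEB2 lay on the same side as other genes of their length, and VIM, of 5158 bases, lay above the median of its length group (0.00). The part of RNA quality in this library was not tested.

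**Figure D4:**
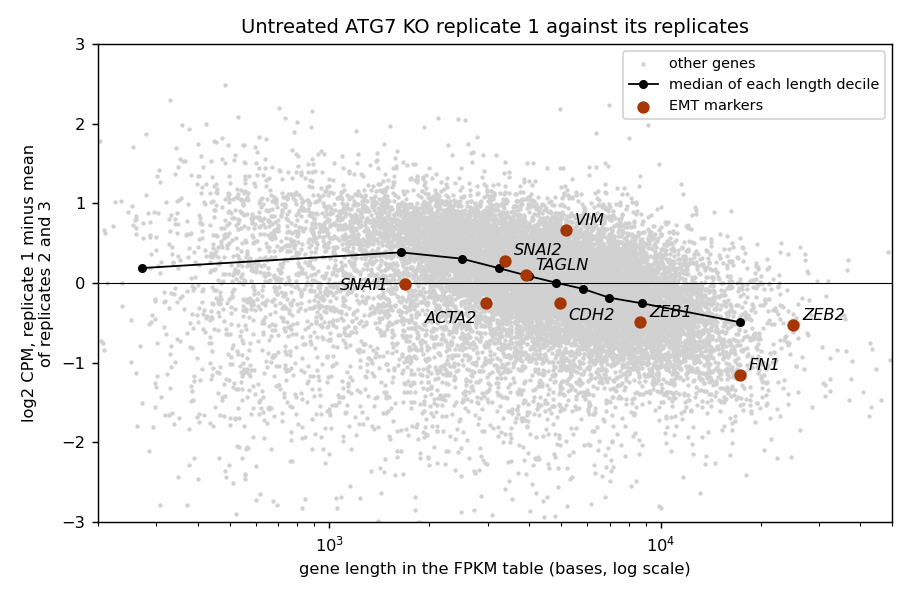
Deviation of untreated ATG7 KO replicate 1 from the mean of replicates 2 and 3 (log2 CPM, vertical axis) against gene length in bases (log axis), for all genes (grey; values beyond the axes are not drawn), the median of each of 10 groups of genes by length (black line) and 9 EMT markers (brown). The medians run from 0.39 to -0.49, and FN1 (-1.16) and VIM (0.67) lie farthest from 0 among the markers.

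From the lists of related genes that follow, the genes with the largest called changes among those above 1 FPKM in a group are named, and shares of all genes are those past the same threshold. Every such gene named from a comparison with untreated ATG7 KO cells kept its direction and its call without replicate 1, and moved by less than 1.5 times. Other EMT transcription factors moved in both directions. Of 12 such genes, 9 could be tested in WT cells and 8 passed with H2O2 (61% of all genes did), 4 up and 4 down, with a median log2 fold change of 0.08 against -0.01 for all genes. FOXC2, a forkhead factor of mesenchyme, rose by 2.43 and SOX9, a factor of cartilage and neural crest, by 1.29, while TCF4 and TWIST1, helix-loop-helix factors, had changes of -1.04 and -0.30. Of 8 tested in ATG7 KO cells, 4 passed (26% of all genes), 3 up and 1 down. FOXC2 (1.25) rose there, and TCF3, a helix-loop-helix factor, had a change of -0.45. Between the lines with H2O2, 6 of 9 passed (55.6% of all genes), 4 higher in ATG7 KO cells, including TCF4 (0.74), SOX9 (0.47) and, under 1 FPKM, PRRX1 (1.44), and 2 lower, TCF3 (-0.85) and FOXC2 (-0.63). Untreated, 3 of 8 passed (7.7% of all genes), among them SOX9 (0.91) and TCF3 (-0.62), and without replicate 1 of the ATG7 KO cells 5 of 8 (36.2%). FOXC2 and TCF4 responded differently in the lines, with interactions of -1.18 (adjusted p = 0.00126) and 1.002 (adjusted p = 0.00316), FOXC2 on the same side as SNAI1.

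Epithelial junction, keratin and regulator genes also moved in both directions. Of 29 genes, 18 could be tested in WT cells and 15 passed with H2O2 (61% of all genes did), 8 up and 7 down, with a median of -0.04. CDH3, the gene of P-cadherin, rose by 1.80 and CLDN4, a tight junction claudin, by 1.14, whereas OCLN, a tight junction gene, had -1.44 and the mucin gene MUC1 -1.13. Among 16 genes tested in ATG7 KO cells, 10 passed (26% of all genes), 5 in each direction. CDH3 (2.41) was highest there, and MUC1 (-1.43) and the keratin gene KRT7 (-1.17) lowest. With H2O2, 14 of 18 differed between the lines (55.6% of all genes), 7 in each direction, with the claudin gene CLDN1 (0.995) and the junction gene JUP (0.53) higher in ATG7 KO cells and the keratin genes KRT19 (-1.53) and KRT7 (-1.34) lower. Untreated, 5 of 16 passed (7.7% of all genes), with CLDN1 (0.89) and JUP (0.80) higher and KRT19 (-1.68) and MUC1 (-0.87) lower, and 9 of 16 passed without replicate 1 of the ATG7 KO cells (36.2%). DSP and CTNND1, both of cell junctions, had positive interactions (1.29 and 0.90) and KRT7 a negative one (-0.77). EPCAM, ESRP1 and GRHL2, which mark or maintain epithelium, were under 0.1 FPKM on average in every group, beside KRT8 at 65.4 to 89.5 FPKM.

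More contractile genes were lower than higher in treated ATG7 KO cells. Of 24 genes, 23 could be tested with H2O2 and 18 passed (55.6% of all genes did), 12 lower and 6 higher, with a median of -0.28 against 0.00 for all genes. The smooth muscle actin gene ACTG2 (-2.63), a paralog of ACTA2, and the tropomyosin gene TPM1 (-1.16) were lowest above 1 FPKM, with LMOD1 (-2.24) between them at a lower level, and MRTFB (0.68), a coactivator of serum response factor, and the myosin gene MYH10 (0.63) were highest. In the untreated state 3 of 23 passed (7.7% of all genes), all lower, among them ACTG2 (-1.19) and TPM4 (-0.59). Without replicate 1 of untreated ATG7 KO cells 14 passed, 11 lower (36.2% of all genes passed). In WT cells 15 of 23 passed with H2O2 (61% of all genes), 4 up and 11 down, with SRF (0.57) and ACTG2 (0.51) highest and MRTFB (-1.49) and the myosin light chain kinase gene MYLK (-1.20) lowest. The 7 of 22 that passed in ATG7 KO cells (26% of all genes) all fell, led by TPM1 (-1.39) and the calponin gene CNN1 (-1.18), and without replicate 1 there were 20, of which 17 fell (58.4% of all genes passed). ACTG2 (-1.43) and CNN1 (-1.08) had interactions on the same side as TAGLN, and MRTFB (1.35) and MYH10 (1.08) on the other side. Reads that map to several actin genes could be shared among ACTA2, ACTG2 and others, since the treatment of such reads is not given.

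**Figure D5:**
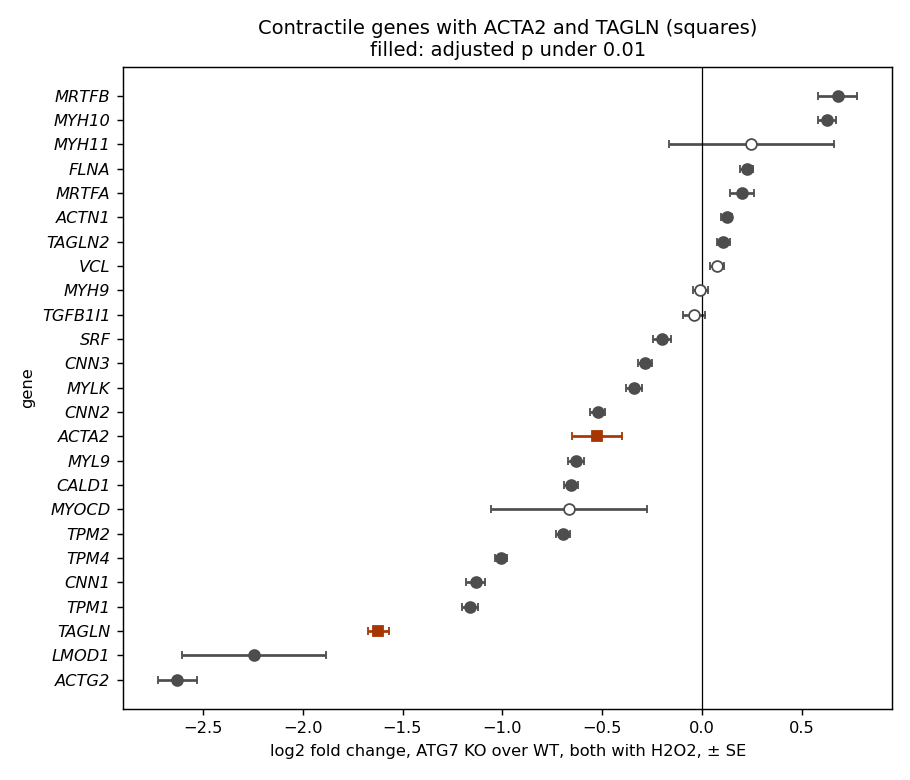
Log2 fold change ± SE of contractile genes in ATG7 KO over WT cells, both with H2O2, sorted by value, with ACTA2 and TAGLN as brown squares; filled symbols have an adjusted p under 0.01. Most symbols lie below 0, TAGLN (-1.62) is near the low end after ACTG2 (-2.63) and LMOD1 (-2.24), and ACTA2 (-0.53) is in the middle.

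Mesenchymal matrix and surface genes mostly fell with H2O2, as FN1 did in WT cells. Of 25 genes, 22 could be tested in WT cells and 19 passed (61% of all genes did), 16 down and 3 up, with a median of -0.59 against -0.01 for all genes. The fibrillin gene FBN1 (-1.28) and the collagen gene COL1A1 (-1.21) fell most among those above 1 FPKM, and the surface genes CD44 (1.25) and SDC1 (1.20) rose. SDC1 is a surface gene of epithelium as well, so its changes in this list do not mark mesenchyme. Of 21 tested in ATG7 KO cells, 13 passed (26% of all genes), 10 down and 3 up, with a median of -0.64. LOX, which cross-links collagen, had -1.49 and the proteoglycan gene LUM -1.28, and SDC1 (1.57) and CD44 (1.27) rose there as well. Between the lines with H2O2, 21 of 23 passed (55.6% of all genes), 13 higher and 8 lower in ATG7 KO cells, with LUM (4.91) and THBS1 (1.56), a secreted glycoprotein gene, highest and LOX (-1.92) and SPARC (-0.89) lowest above 1 FPKM. At lower levels, POSTN (-3.89) and CDH11 (-3.87) were farther down. Untreated, 10 of 23 passed (7.7% of all genes), 6 higher, including LUM (5.80) and S100A4 (2.10), and 4 lower, including LOX (-1.21) and SPARC (-0.68). Without replicate 1 of the untreated ATG7 KO cells, 19 of 23 passed here (36.2% of all genes) and 20 of 21 in the comparison of treated with untreated ATG7 KO cells (58.4%). LOX (-0.71), THY1 (-0.37) and COL1A2 (0.62) passed as interactions.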

How the data were processed

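RNA of 12 HLE-B3 libraries (3 per group) was sequenced after NEBNext library preparation. The raw counts deposited by the authors are reads per gene. The FPKM values deposited by the authors follow from them by gene length and a scaling factor per library that is not its plain total. Values rebuilt with the total were 0.983 to 1.05 times the deposited ones, by a constant factor within each library. The submitters' processing notes name HISAT2 2.0.5, featureCounts 1.5.0-p3 and GRCh38. The strand setting and the treatment of reads with several positions are not given in the sources used here. Start and end of 58724 of 58735 genes equal those of GENCODE release 29.

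Counts were tested with edgeR 4.0.16 (limma 3.58.1, R 4.3.3): filterByExpr with a minimum count of 10, TMM, robust quasi-likelihood test, Benjamini-Hochberg adjustment over all genes, a call at an adjusted p under 0.01. Each comparison used its own 6 libraries, and the interaction all 12. Log2 fold changes are given ± SE, and FPKM per library. The procedure was tested on simulated data with the same spread for all genes and no library set apart. That test does not cover a library like untreated ATG7 KO replicate 1. CDH1 was compared by exact permutation. Alternatives were DESeq2 1.42.0, RLE and upper quartile scaling, other filters and thresholds, limma on log2(FPKM + 1) and log2(FPKM + 0.1), a gene length offset (lowess, span 0.3), the replicate block, and leaving out each library.

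The 10 markers and the gene lists were chosen with earlier results of these data known. Of each list, the 2 called genes with the largest change in each direction are named, if above 1 FPKM in a group, except 2 that are not reported here; the other genes named with a list were picked with their values in view. Whether replicates are separate cultures is stated only as biological replicates, so p-values measure the spread between these samples.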

Additional observations from a re-analysis of the deposited data

Results flagged for a closer look

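The responses to H2O2 of 3 markers differed between WT and ATG7 KO cells by the test of the interaction itself (edgeR, adjusted p under 0.01). Of all genes tested, 14% passed, and 34.1% did without untreated ATG7 KO replicate 1. For SNAI1 the difference in log2 fold change, ATG7 KO minus WT, was -1.76 (adjusted p = 0.000181), with a response of 1.96 in WT and 0.20 in ATG7 KO cells. For TAGLN it was -1.02 (adjusted p = 0.000102), with responses of 0.18 and -0.84. For ZEB1 it was 0.72 (adjusted p = 0.00637), with responses of -0.14 and 0.58. Replicates 2 and 3 of untreated ATG7 KO cells were at 7.06 and 7.14 FPKM for ZEB1, against 5.07 FPKM in replicate 1. The ZEB1 call was lost when any 1 library outside the untreated ATG7 KO group was left out.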

How the results depend on the processing

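Over 45 fold changes (9 markers in 5 comparisons), leaving out 1 library kept direction and side of the threshold for 274 values, lost a call for 27, gained one for 17 and changed the sign of 6. Other settings kept 467, lost 35, gained 23 and changed the sign of 6. They include the study's thresholds, which can only remove calls, and an adjusted p under 0.05, which can only add them. The causes of the other changes were not tested. In untreated cells, the number of markers that differed between ATG7 KO and WT was 1, and became 2 with DESeq2 or with all 12 libraries in the fit, 3 at an adjusted p under 0.05, 0 by the study's thresholds and 0 to 7 with 1 library left out. With H2O2, 9 differed, but 3 with all 12 libraries in the fit, 2 by the study's thresholds and 8 to 9 with 1 library left out. H2O2 changed 7 markers in WT cells (4 by the study's thresholds, 6 to 8 with 1 library left out) and 4 in ATG7 KO cells (7 with all 12 libraries, 2 by the study's thresholds, 2 to 8 with 1 library left out). The interaction passed for 3, for 5 without a filter beyond 1 count and for 2 to 6 with 1 library left out. Of all genes, 7.7% passed between the untreated lines and 55.6% between the treated lines. With H2O2, 61% passed in WT and 26% in ATG7 KO cells, and 14% passed as interactions. By the study's thresholds these shares, in this order, were 3.5%, 7.46%, 12.5%, 11.2% and 5.17%. Without untreated ATG7 KO replicate 1, the first was 36.2%, that of H2O2 in ATG7 KO cells 58.4% and that of interactions 34.1%.

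Signs changed mostly for values that were not called, and for 1 that was, ZEB2 with H2O2 in WT cells. With the gene length offset, ZEB2 was at 0.10 in ATG7 KO against WT untreated, and with H2O2 in WT cells ZEB1 was at 0.061 and ZEB2 at 0.051. FN1 with H2O2 in ATG7 KO cells was at 0.0054 and 0.0065 by limma on log2 FPKM plus 1 and plus 0.1, and between -0.39 and 0.10 with 1 library left out (0.05 and 0.10 without untreated ATG7 KO replicate 3 or 2). The interaction of ACTA2 was -0.075 by limma on log2(FPKM + 1) and -0.090 to 0.15 with 1 library left out (-0.090 without untreated WT replicate 3, -0.03 without untreated ATG7 KO replicate 1 and -0.00026 without treated ATG7 KO replicate 2), and that of CDH2 was -0.015 to 0.12, the lowest without untreated ATG7 KO replicate 1.

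The labels give same-numbered libraries no link beyond the number. Correlations of their deviations from the group means were -0.043 to 0.098, which cannot exclude a shared culture or batch. With the replicate number as a block, 0 markers differed in untreated cells in place of 1, and the counts of the other comparisons stayed within 1.5 times.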

Other observations

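For each of the 9 markers that passed the filter, the gene with the most similar log2 CPM over the 12 libraries was sought among 13298 genes above 1 FPKM in a group. The libraries form 4 groups, so a high r means a like order of 4 group levels. These were NR4A3, an early response nuclear receptor gene, for SNAI1 (r = 0.98), STX3 for SNAI2 (0.997), RC3H2 for ZEB1 (0.988), SCARA3 for ZEB2 (0.987), NRDC for CDH2 (0.993), NDUFB5 for VIM (0.981), ANKRD52 for FN1 (0.992), IQCJ-SCHIP1 for ACTA2 (0.987) and ZNF486 for TAGLN (0.986). Without untreated ATG7 KO replicate 1, NR4A3 and RC3H2 were again the nearest genes for SNAI1 and ZEB1, at r = 0.982 and 0.978, and other genes ranked first for the remaining 7 markers.

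Among actin genes with sequence close to ACTA2, ACTG2 was at 7.16 ± 0.24 FPKM in untreated and 10.3 ± 0.18 in treated WT cells, and at 3.15 ± 0.56 and 1.67 ± 0.24 in ATG7 KO cells (SD, n = 3). ACTA1 had at most 9 reads in any library and ACTC1 at most 13, while ACTB and ACTG1 had 57894 and 49045 reads or more in each.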
